A study of Saccharomyces cerevisiae with 12 samples.

Results

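*IRT1*, *ICR1*, *PWR1* and *HRA1* are regulatory long noncoding RNAs of budding yeast that lie beside or across protein-coding genes, and they make up 4 of the 7112 features in the count table. They were taken by name, and the names were chosen by their place beside regulated genes and with the counts of these same 12 libraries already known, so their levels and fold changes are given below as a description, with no test. RNA-seq was performed on prototrophic *S. cerevisiae* of the BY (S288C) lineage in 4 groups of 3 cultures, each group combining 1 of 2 strains with 1 of 2 potassium concentrations. The strains were WT (CGY41.30, *MAT*a) and *sis2*Δ (CGY41.34, *MAT*a, *sis2*::kanMX), where *SIS2* encodes an inhibitory subunit of the Ppz1p phosphatase. After an overnight culture with standard potassium, cells were diluted into defined medium with 7.35 mM KCl (standard) or 0.5 mM KCl (low). All cultures were in exponential growth and had been in their medium for 24 h. Each genotype was represented by 1 strain, so any other difference between those strains cannot be told apart from the deletion, and the replicate numbers are batch numbers in the labels.

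Noncoding transcription can regulate a neighbouring gene in cis: an RNA polymerase that reads through a promoter displaces transcription factors and lays down repressive chromatin marks. *IRT1* is transcribed through the promoter of *IME1*, the master regulator of entry into meiosis, and in haploid cells it is switched on by the transcription factor Rme1p and represses *IME1* through Set2p and the Set3 complex. *ICR1* crosses the promoter of *FLO11*, a cell wall flocculin needed for adhesion and filamentous growth, and represses it, whereas *PWR1*, transcribed from the opposite strand, interferes with *ICR1* and thereby favours *FLO11*. *HRA1* lies antisense to the 5′ end of *DRS2*, which encodes a lipid-flipping ATPase, and the RNA is a substrate of RNase P in yeast.

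The positions below are those of the RefSeq annotation of the R64 genome build. *IRT1* occupied chrX:605936-607424 on the minus strand (1489 bp) and no other annotated feature overlapped it. *IME1* began 284 bp downstream of its 3′ end on the same strand, and *RPL43B*, a ribosomal protein gene, lay 880 bp upstream on the plus strand. *ICR1* occupied chrIX:393884-397082 on the minus strand (3199 bp), ended 208 bp before *FLO11*, and contained the dubious open reading frame *YIR020C* on its own strand. *PWR1*, at chrIX:395999-396939 on the plus strand (941 bp), lay entirely within *ICR1*. *HRA1*, at chrI:99305-99868 on the plus strand (564 bp), shared 393 bp with the coding sequence of *DRS2* on the minus strand, which was 69.7% of *HRA1*.

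**Figure D1:**
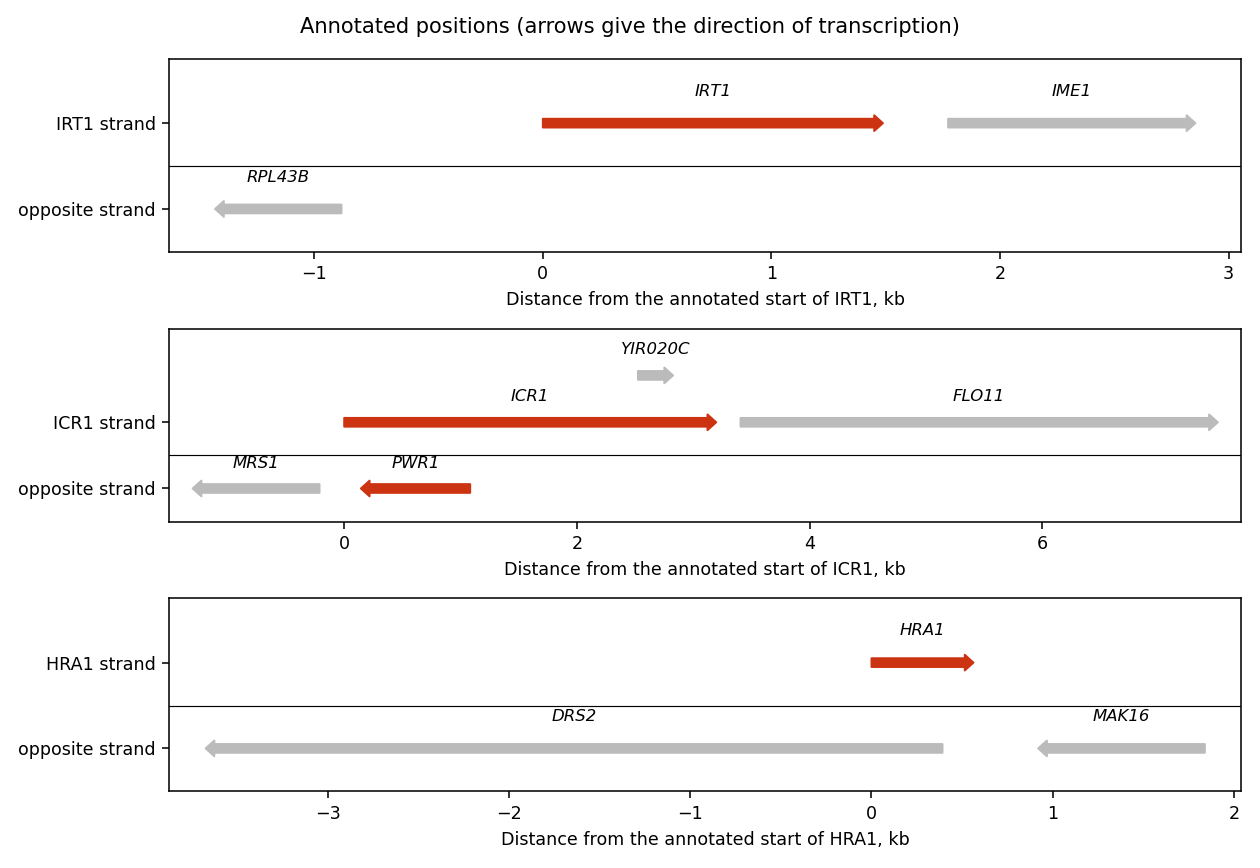
Annotated positions around *IRT1* (top), *ICR1* and *PWR1* (middle) and *HRA1* (bottom), drawn to scale as distance in kb from the annotated start of *IRT1*, *ICR1* or *HRA1*, with the strand of that RNA on top and arrows for the direction of transcription. Red arrows are the noncoding RNAs and grey arrows are neighbouring features; *SAW1*, on the far side of *DRS2*, is not drawn. *IRT1* overlaps nothing, *PWR1* lies wholly inside *ICR1*, and the first 393 bp of *HRA1* lie opposite *DRS2*.

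The 300 bases before the annotated start of *IRT1* (chrX:607425-607724, minus strand, R64) are shown because Rme1p acts on *IRT1* from this side. Capitals mark matches to ACCTCAA, the core of the Rme1p recognition sequence. The window held 2 matches, beginning 265 and 184 bases before the start, both on the *IRT1* strand. Searched on both strands, at least 1 match was present in 3.95% of the 300-base windows before the starts of 6430 nuclear genes, and at least 2 were present in 0.140% (9 genes). The windows before *ICR1*, *PWR1* and *HRA1* held no match to these letters. The core was searched because Rme1p was already known to act on *IRT1*, so the matches are no independent result and the shares are not read as enrichment. A match is a description of the sequence, and binding was not measured here.
*IRT1* upstream: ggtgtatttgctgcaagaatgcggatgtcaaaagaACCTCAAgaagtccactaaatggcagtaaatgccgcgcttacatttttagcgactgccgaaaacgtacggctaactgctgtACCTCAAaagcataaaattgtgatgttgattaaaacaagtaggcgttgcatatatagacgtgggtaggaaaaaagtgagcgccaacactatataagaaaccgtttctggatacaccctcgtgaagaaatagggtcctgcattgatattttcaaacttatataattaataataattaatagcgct

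Where features on opposite strands share bases, the strand of a read decides which RNA it belongs to. The 42 bases across the start codon of *DRS2* (chrI:99668-99709) are shown on both strands, with the bases that *HRA1* shares with *DRS2* coding sequence in capitals. The ATG of *DRS2* opens the capitals on its own strand.
*HRA1* strand (plus): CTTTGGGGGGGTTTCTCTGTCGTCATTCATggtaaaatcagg
*DRS2* strand (minus): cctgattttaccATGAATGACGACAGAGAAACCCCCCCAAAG

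The first 42 bases of *PWR1* (chrIX:395999-396040), all in capitals, are likewise also *ICR1* sequence when read from the minus strand, as is every other base of *PWR1*.
*PWR1* strand (plus): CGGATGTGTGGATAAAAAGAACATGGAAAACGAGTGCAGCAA
*ICR1* strand (minus): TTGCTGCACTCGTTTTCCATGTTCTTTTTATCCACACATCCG

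The libraries were prepared with a directional kit, but whether the counting used strand is not given in the sources used here. *RME2*, a noncoding RNA antisense to the meiotic methyltransferase gene *IME4*, covers *IME4* entirely on the opposite strand. *IME4* carried 793 to 1083 counts and *RME2* 863 to 1183, and the *IME4* count was 0.896 to 0.926 of the *RME2* count in all 12 libraries. On this evidence from a single pair, the values of *PWR1* cannot be told apart from reads of *ICR1* over the same bases, nor those of *HRA1* from reads of *DRS2*. No annotated feature placed on R64 overlapped *IRT1*, and its count was whole in 8 of 12 libraries. Among 5674 features with no annotated overlap and a mean of at least 10 counts, 39.6% of values were whole. Where the *IRT1* count was not whole, some of its reads were divided with a feature or locus that was not identified here. Small open reading frames near the members are among the 1039 features that were not placed.

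The deletion matched the labels, and the mating type matched the strain description above. *SIS2* was at 80.7 to 95.3 CPM (counts scaled to a common library size, TMM-normalized) in the WT libraries and at 1.11 to 2.07 CPM in the *sis2*Δ libraries. The a-cell receptor gene *STE2* was at 657 to 799.8 CPM, and the α-factor gene *MF(ALPHA)1* was at 0.274 to 3.17 CPM. *MF(ALPHA)1* and the α-cell receptor gene *STE3* were both higher in low potassium, *STE3* at 9.96 to 11.4 CPM in the standard and 16.8 to 22.1 CPM in the low-potassium libraries, and the part of this in the *IRT1* result below was not tested. Libraries held 35451323 to 46543107 counts. Over 6691 tested features, 898 features (13.4%) passed edgeR's quasi-likelihood test at an adjusted p under 0.05 for the deletion in standard potassium (7.35 mM KCl), 119 (1.78%) for the deletion in low potassium (0.5 mM KCl), 3165 (47.3%) between 0.5 and 7.35 mM KCl in WT, 3073 (45.9%) in *sis2*Δ, and 183 (2.74%) for the interaction of strain and KCl.

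All 4 features had counts in every library, at low levels. For *PWR1* and *HRA1*, whose bases other features share on the opposite strand, these counts do not show that the RNA itself was present. Per kilobase of annotated length, the mean level over 12 libraries was 9.51 CPM per kb for *HRA1*, 7.72 for *IRT1*, 2.81 for *ICR1* and 1.88 for *PWR1*. Of 5924 tested features with a known length, 14.4% lay below *HRA1*, 11.1% below *IRT1*, 3.87% below *ICR1* and 2.57% below *PWR1*. On the same per-length scale *IME1* was at 6.67, *FLO11* at 2.89 and *DRS2* at 23.9 CPM per kb. Averaged over the 12 libraries, *IME1* was about as scarce in these growing cells as *IRT1*, and *FLO11* about as scarce as *ICR1*. *FLO11* was above *PWR1*, and *DRS2* was more abundant than *HRA1*. For *IRT1* and *IME1* the average pools unlike groups, at 4.23 and 7.56 CPM per kb in WT in 7.35 mM KCl. In *sis2*Δ in 0.5 mM KCl they were at 12.6 and 6.87 CPM per kb. Raw counts ran from 223 to 835 for *IRT1*, 302 to 434 for *ICR1*, 47.5 to 84.8 for *PWR1* and 147 to 284.5 for *HRA1*, so counting error was largest for *PWR1*.

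*IRT1* was more abundant in low potassium in both strains. In 7.35 mM KCl it was at 5.09, 6.82 and 6.96 CPM in the WT libraries and at 7.07, 7.12 and 7.13 CPM in the *sis2*Δ libraries. In 0.5 mM KCl it was at 13.4, 14.3 and 13.9 CPM in WT and at 19.5, 17.0 and 19.6 CPM in *sis2*Δ. Every low-potassium library thus lay above every standard-potassium library, and within low potassium every *sis2*Δ library lay above every WT library. From low to high, the group means were 6.29 ± 1.04 CPM (SD, n = 3) for WT and 7.11 ± 0.0353 for *sis2*Δ in 7.35 mM KCl, then 13.9 ± 0.466 for WT and 18.7 ± 1.46 for *sis2*Δ in 0.5 mM KCl. The first and second of these means differed by less than the SD of the WT group, and the later steps exceeded the SDs of the groups they separate. Since *IRT1* was chosen with these counts known, this describes the values and is no test of any step.

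**Figure D2:**
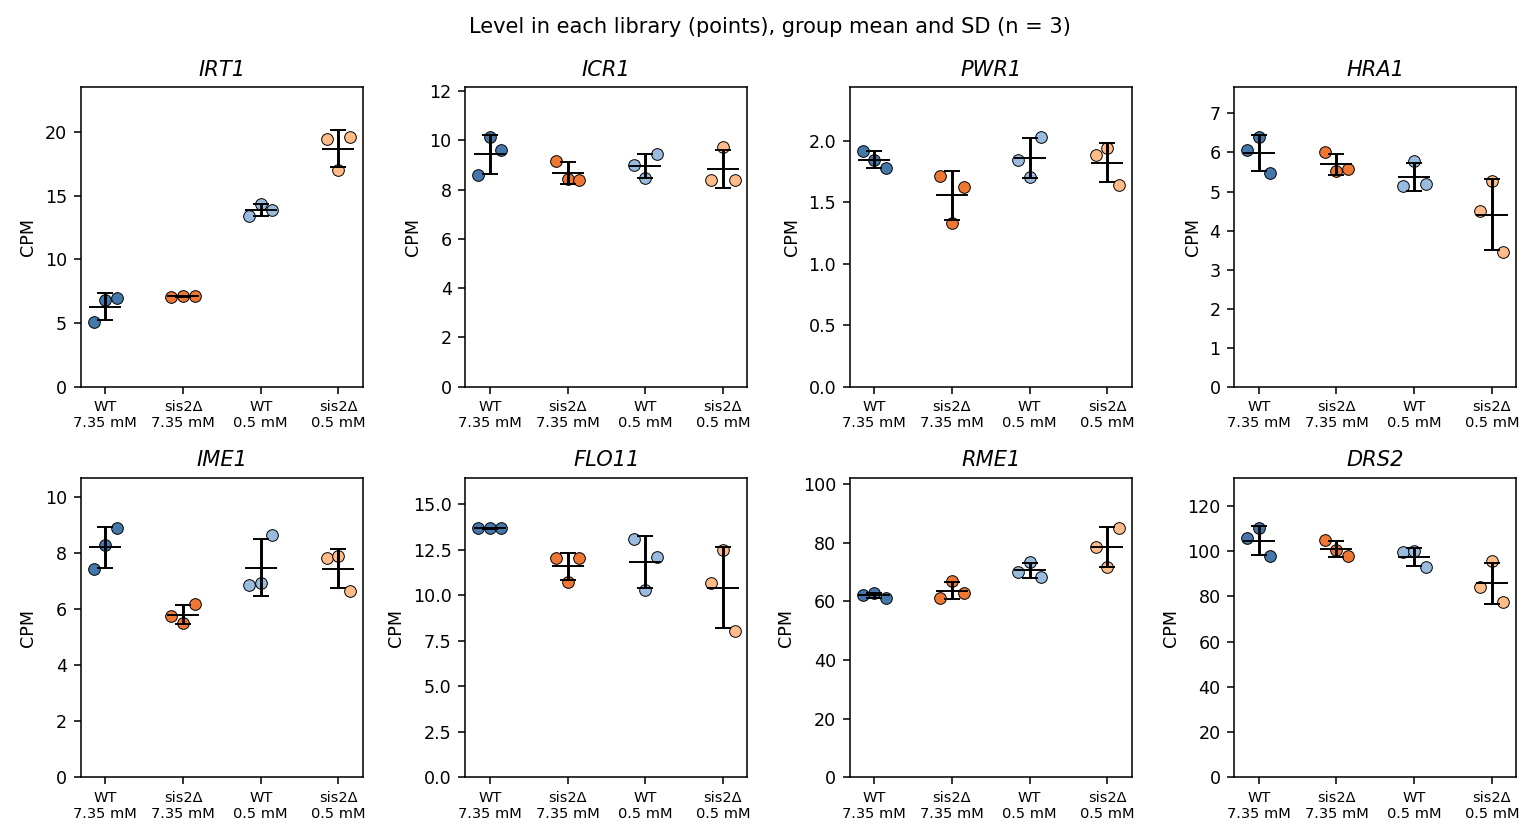
Level in CPM (linear axes from 0, one scale per panel) of the 4 noncoding RNAs in the top row and of *IME1*, *FLO11*, *RME1* and *DRS2* in the bottom row, in the 4 groups. Points are single libraries, horizontal bars are group means and whiskers are SDs (n = 3). *IRT1* stands at 13.4 to 19.6 CPM in the 6 low-potassium libraries against 5.09 to 7.13 CPM in the other 6, while *ICR1* stays between 8.37 and 10.1 CPM throughout.

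In WT, low potassium went with 2.21-fold more *IRT1* (log2 fold change 1.14, SE 0.0962), and in *sis2*Δ with 2.63-fold more (log2 fold change 1.40, SE 0.0928). These changes placed *IRT1* above 97.2% and 98.4% of the 6691 tested features in the respective strain. Between the strains, *IRT1* was 1.35-fold higher in *sis2*Δ in 0.5 mM KCl (log2 fold change 0.43, SE 0.0865), above 98.1% of features. In 7.35 mM KCl the difference was 1.13-fold (log2 fold change 0.18, SE 0.103). It came largely from the lowest WT library, replicate 1, without which the log2 fold change of *IRT1* was 0.05. The WT response to low potassium was 1.01 on the log2 scale without that library. The difference between the strains in their *IRT1* response to potassium was 0.25 on the log2 scale (SE 0.135). All 4 differences of *IRT1* were positive in 3 of 3 batches, which follows from the lack of overlap given below and adds nothing to it.

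The values of *IRT1* did not overlap between the groups in any of the 4 comparisons, and the same held for 32.2% of all tested features between strains in 7.35 mM KCl, 16.8% between strains in 0.5 mM KCl, 56.3% between potassium levels in WT and 52.8% between potassium levels in *sis2*Δ. Since the members were picked with these results known, nothing is read from this.

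*IME1*, downstream of *IRT1*, was not ordered like it across the 4 groups. It was at 7.42, 8.26 and 8.89 CPM in WT and 5.73, 5.49 and 6.17 CPM in *sis2*Δ in 7.35 mM KCl, with no overlap (as in 32.2% of all tested features). In 0.5 mM KCl it was at 6.85, 6.92 and 8.65 CPM in WT and 7.82, 7.87 and 6.62 CPM in *sis2*Δ, and the groups overlapped. *IME1* was lower in *sis2*Δ in standard medium (log2 fold change −0.50, SE 0.105, edgeR adjusted p = 0.00299), where *IRT1* differed little. That *IME1* was lower there in 3 of 3 batches follows from the lack of overlap. With low potassium *IME1* rose in *sis2*Δ (0.35, SE 0.107, adjusted p = 0.0101 by edgeR) and did not pass the test in WT (−0.13, SE 0.102, adjusted p = 0.315 by edgeR). The potassium responses of the strains did not pass the test of their difference (0.48, SE 0.148, edgeR adjusted p = 0.0841), which, of the 18 alternatives run, was passed only when WT in 0.5 mM KCl replicate 3 was left out (0.60, adjusted p = 0.0273 by edgeR). Between the strains in 0.5 mM KCl, where *IRT1* was 1.35-fold higher in *sis2*Δ, the *IME1* difference was −0.01 (SE 0.104).

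The count of *IRT1* relative to *IME1* changed with both factors. It was 0.763 in WT and 1.23 in *sis2*Δ in 7.35 mM KCl, and 1.87 in WT and 2.51 in *sis2*Δ in 0.5 mM KCl (geometric means of 3 libraries, not corrected for length). Across the 12 libraries, Pearson's r between the log2 levels of *IRT1* and *IME1* was 0.184. These libraries fall into groups with distinct *IRT1* levels, so r is given as a description. *RPL43B*, upstream of *IRT1*, passed the test in none of the comparisons (log2 fold changes −0.10 to 0.16).

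*RME1*, whose product activates *IRT1* and is known as a repressor of meiosis in haploid cells, also rose with low potassium. It was at 61.2 to 62.8 CPM in WT in 7.35 mM KCl and at 68.5 to 73.5 CPM in WT in 0.5 mM KCl (log2 fold change 0.19, SE 0.062, edgeR adjusted p = 0.0179). Without WT in 0.5 mM KCl replicate 2 this *RME1* difference was 0.16 (adjusted p = 0.0755 by edgeR). In *sis2*Δ *RME1* went from 61.1 to 66.8 CPM up to 71.6 to 85.1 CPM (0.30, SE 0.062, edgeR adjusted p = 0.000452). *RME1* did not overlap between potassium levels in either strain, as held for 56.3% of all tested features in WT and 52.8% in *sis2*Δ. That it was higher in 3 of 3 batches in each strain follows from this and adds nothing to it. Each of these *RME1* differences was smaller than that of *IRT1*. *SET2*, encoding the H3K36 methyltransferase through which *IRT1* acts, fell with low potassium in WT (−0.21, edgeR adjusted p = 0.00362). In *sis2*Δ *SET2* did not pass (−0.09, adjusted p = 0.175 by edgeR). *SET3*, encoding a subunit of the deacetylase complex, passed the test in no comparison (−0.08 to 0.09).

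Around *IME1*, 20 listed regulators and targets were measured. The counts of this and the later lists stand beside the shares of all tested features past the threshold, 47.3% with low potassium in WT and 45.9% in *sis2*Δ, 13.4% and 1.78% between strains in standard and low potassium, and 2.74% for the interaction. With low potassium in WT 4 rose and 5 fell, the largest differences being those of *NDT80* (0.41, edgeR adjusted p = 0.000292), the transcription factor of middle meiosis, and of *IME2* (−0.42, adjusted p = 0.00094 by edgeR), the kinase that Ime1p induces. In *sis2*Δ 4 rose and 1 fell, with *NDT80* highest (0.45, edgeR adjusted p = 0.000116) and the kinase gene *MCK1*, an activator of *IME1*, lowest (−0.41, adjusted p = 3.22e-05 by edgeR). The median log2 fold change of the list was −0.0022 in WT and 0.05 in *sis2*Δ, against −0.0012 and 0.0023 for all tested features. Between the strains in 7.35 mM KCl 1 rose and 3 fell. *IME2* was lowest (−0.58, edgeR adjusted p = 0.000235), beside *IME1* itself, and the Set3 complex gene *SIF2* was the one that rose (0.18, adjusted p = 0.0272 by edgeR), a call lost when any of 4 single libraries was left out (0.17 to 0.19). *IME2* and *IME1* thus were both lower in *sis2*Δ in standard potassium, at a list median of −0.08 (all tested features −0.00033). In 0.5 mM KCl 0 of the 20 passed edgeR's test between strains (3 at an unadjusted p under 0.05), and 0 passed for the interaction (4 at an unadjusted p under 0.05, 1 with batch as a replicate block).

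**Figure D3:**
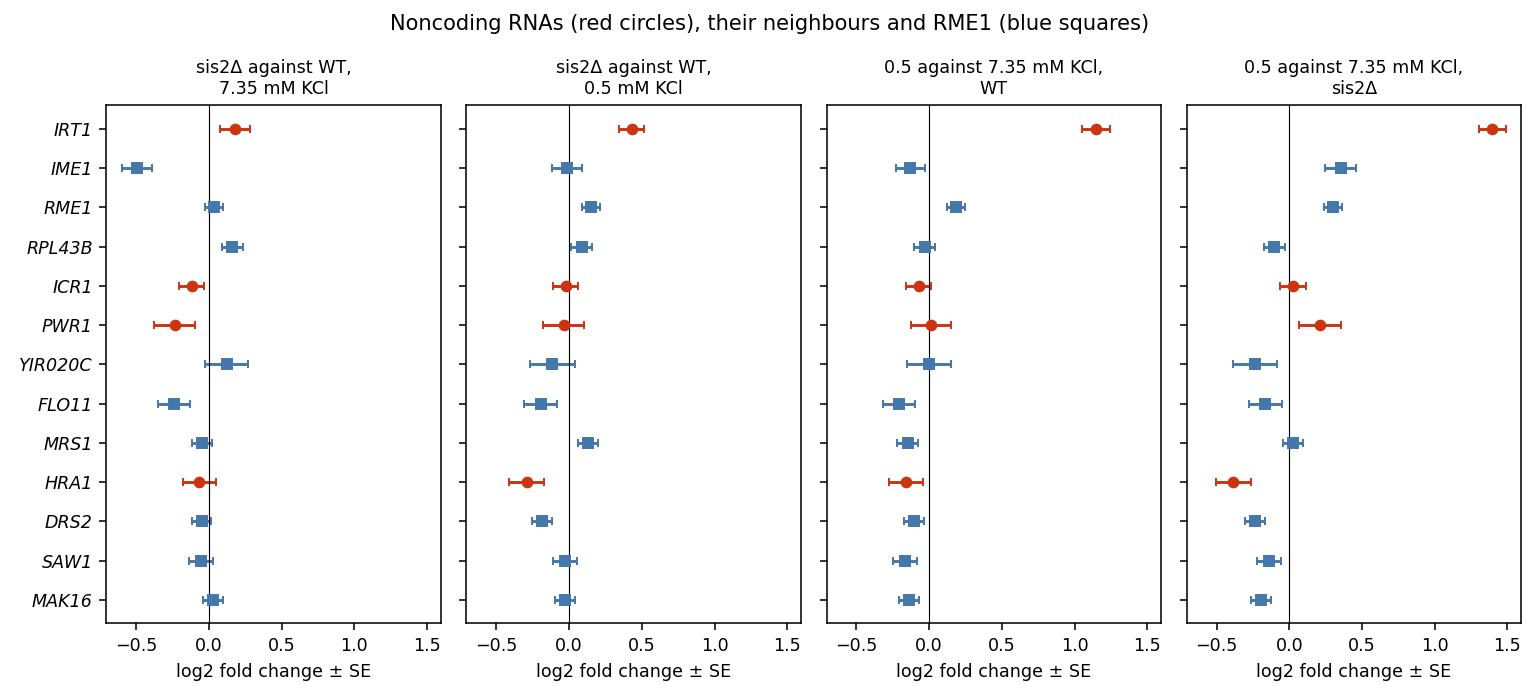
Log2 fold changes with SE from the edgeR fit (points and whiskers) for the 4 noncoding RNAs (red circles) and for neighbouring features and *RME1* (blue squares), in the 4 comparisons. *IRT1* lies at 1.14 and 1.40 in the low-potassium panels, while *ICR1*, *PWR1* and their neighbours lie between −0.24 and 0.21 in every panel.

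*ICR1* and *PWR1*, the opposing pair upstream of *FLO11*, varied little. *ICR1* was at 8.59, 10.1 and 9.60 CPM in WT and 9.18, 8.43 and 8.38 CPM in *sis2*Δ in 7.35 mM KCl. In low potassium it was at 8.99, 8.46 and 9.46 CPM in WT and 8.37, 9.73 and 8.41 CPM in *sis2*Δ. The 4 groups overlapped one another, and the group means lay between 8.66 and 9.44 CPM, within the largest SD of 0.784. Its log2 fold changes were −0.12 (SE 0.087) and −0.02 (SE 0.088) between strains in standard and low potassium, and −0.07 (SE 0.087) and 0.02 (SE 0.088) with low potassium in WT and *sis2*Δ.

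*PWR1* was at 1.92, 1.84 and 1.78 CPM in WT and 1.71, 1.33 and 1.63 CPM in *sis2*Δ in 7.35 mM KCl. The low-potassium libraries were at 1.85, 1.70 and 2.03 CPM in WT and 1.89, 1.94 and 1.64 CPM in *sis2*Δ. All 3 *sis2*Δ libraries in standard medium lay below the WT libraries of that medium. The strains likewise did not overlap there in 32.2% of all tested features, and nothing is read from this. The log2 fold change of *PWR1* there was −0.24 (SE 0.141), and the other differences of *PWR1* were −0.04 (SE 0.139) between strains in 0.5 mM KCl, 0.01 (SE 0.137) with low potassium in WT and 0.21 (SE 0.143) in *sis2*Δ. The *PWR1* count was 0.197, 0.180, 0.208 and 0.208 of the *ICR1* count in WT and *sis2*Δ in standard and then in low potassium. With 47.5 to 84.8 counts a library, changes of this size in *PWR1* were close to its SEs.

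*FLO11* was at 13.66 to 13.7 CPM in WT and 10.7 to 12.01 CPM in *sis2*Δ in 7.35 mM KCl, and at 13.1, 10.3 and 12.1 CPM and 10.7, 12.5 and 8.06 CPM in 0.5 mM KCl. WT and *sis2*Δ did not overlap in standard potassium, as held for 32.2% of all tested features, and did in low potassium. The difference in standard potassium was −0.24 (SE 0.111, edgeR adjusted p = 0.162), and with the 6 libraries of that comparison fitted alone it passed the threshold (adjusted p = 0.0412 by edgeR). *FLO11* did not pass between strains in low potassium (−0.19, edgeR adjusted p = 0.445), with low potassium in WT (−0.21, adjusted p = 0.130 by edgeR) or in *sis2*Δ (−0.16, edgeR adjusted p = 0.252). The last of these was passed without *sis2*Δ in 0.5 mM KCl replicate 2 (−0.32, adjusted p = 0.0247 by edgeR). Pearson's r over the 12 libraries was 0.620 between *ICR1* and *FLO11*, 0.443 between *PWR1* and *FLO11* and 0.497 between *PWR1* and *ICR1*, given as a description. *MRS1*, an intron splicing factor gene upstream of *ICR1*, and *YIR020C* passed the test in no comparison.

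Of the 28 listed regulators of *FLO11* and related flocculins, 27 were measured. *SFL1*, encoding a repressor of *FLO11* that acts through *ICR1*, was lower in *sis2*Δ in 7.35 mM KCl (−0.28, edgeR adjusted p = 0.017) and fell with low potassium in WT (−0.32, adjusted p = 0.00182 by edgeR) and in *sis2*Δ (−0.20, edgeR adjusted p = 0.0419). The first and the last of these *SFL1* differences lost the threshold when any of 4 single libraries was left out, as in the case of *sis2*Δ in 0.5 mM KCl replicate 3 for the last (−0.11, adjusted p = 0.257 by edgeR). *RPD3*, encoding a histone deacetylase linked to *PWR1* activity, fell in *sis2*Δ with low potassium (−0.14, edgeR adjusted p = 0.0463), a difference that did not pass in 7 of 19 alternative settings.

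With low potassium, 9 of the 27 rose and 5 fell in WT, and 7 rose and 2 fell in *sis2*Δ. *PHD1*, a transcription factor of pseudohyphal growth, was highest in WT (0.86, SE 0.091, edgeR adjusted p = 1.02e-07) and the heat-shock-factor-like gene *MGA1* in *sis2*Δ (0.55, edgeR adjusted p = 0.000222), and *SFL1* was the lowest in both. The list medians were 0.05 and 0.09, against −0.0012 and 0.0023 for all features tested. Between strains in 7.35 mM KCl 2 rose and 3 fell (median −0.07), from *PHD1* (0.86, adjusted p = 1.26e-06 by edgeR) to *MGA1* (−0.39, edgeR adjusted p = 0.0182, a call lost when any of 3 libraries was left out, at −0.34 to −0.39), and in 0.5 mM KCl 0 of 27 passed edgeR's test (6 at an unadjusted p under 0.05, and 1 with batch as a replicate block). The interaction was passed by *PHD1* (−0.55) and by *FLO9* (−0.40), a flocculin gene, of the 27. With low potassium *PHD1* rose less in *sis2*Δ (0.32) than in WT. *FLO9* rose in WT (0.34, edgeR adjusted p = 0.000204) and did not pass in *sis2*Δ (−0.06, adjusted p = 0.464 by edgeR). Between strains *FLO9* was higher in *sis2*Δ in 7.35 mM KCl (0.41, edgeR adjusted p = 0.000184) and differed by 0.01 in 0.5 mM KCl.

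*HRA1* was lowest in the *sis2*Δ cultures grown in low potassium. It was at 6.08, 6.39 and 5.49 CPM in WT and 6.01, 5.52 and 5.57 CPM in *sis2*Δ in 7.35 mM KCl. In low potassium the level was 5.15, 5.77 and 5.18 CPM in WT and 4.49, 5.28 and 3.45 CPM in *sis2*Δ. The *sis2*Δ libraries did not overlap between potassium levels, as held for 52.8% of all tested features, and nothing is read from this. The lowest of the 12 libraries was *sis2*Δ in 0.5 mM KCl replicate 3. The log2 fold change of *HRA1* with low potassium was −0.38 (SE 0.12) in *sis2*Δ and −0.16 (SE 0.115) in WT, and between strains it was −0.29 (SE 0.121) in 0.5 mM KCl and −0.07 (SE 0.114) in 7.35 mM KCl. Without replicate 3 of *sis2*Δ in 0.5 mM KCl the *HRA1* values were −0.22 with low potassium in *sis2*Δ and −0.13 between strains in 0.5 mM KCl, and without replicate 2 of that group they were −0.54 and −0.44. The potassium responses of *HRA1* in the strains differed by −0.22 (SE 0.166), which was −0.07 without that replicate 3 and −0.38 without that replicate 2.

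*DRS2*, on the opposite strand, was ordered in the same way. It was at 97.8 to 110.4 CPM in the 6 standard-potassium libraries, at 99.8, 100.1 and 92.8 CPM in WT and at 84.3, 95.5 and 77.5 CPM in *sis2*Δ in low potassium. *DRS2* fell with low potassium in *sis2*Δ (−0.24, SE 0.069, edgeR adjusted p = 0.0075) and, without replicate 3 of *sis2*Δ in 0.5 mM KCl, was at −0.17 (adjusted p = 0.0591 by edgeR). It did not pass in WT (−0.10, edgeR adjusted p = 0.229) or between strains in 0.5 mM KCl (−0.19, adjusted p = 0.199 by edgeR), although the latter passed without replicate 2 of *sis2*Δ in 0.5 mM KCl (−0.27, edgeR adjusted p = 0.0182). The *HRA1* count was 0.0572 and 0.0566 of the *DRS2* count in WT and *sis2*Δ in 7.35 mM KCl, and 0.0551 and 0.0510 in 0.5 mM KCl. Pearson's r between them was 0.965 over 12 libraries, points that share the bases counted on both strands. *MAK16*, a ribosome biogenesis gene on the other side of *HRA1*, fell with low potassium in *sis2*Δ (−0.19, edgeR adjusted p = 0.0242) and lost the threshold when any of 4 libraries was left out. *SAW1*, a DNA repair gene beyond *DRS2*, passed in no comparison.

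Among 19 genes of RNase P and of the cleavage of the 20S pre-rRNA, processes to which *HRA1* has been linked, 0 rose and 7 fell with low potassium in WT, and 1 rose and 8 fell in *sis2*Δ, against 47.3% and 45.9% of all tested features past the threshold in either direction. *RPP1*, a protein subunit of RNase P, was lowest in each (−0.52, edgeR adjusted p = 1.38e-07 in WT, and −0.48, adjusted p = 5.92e-07 by edgeR in *sis2*Δ). The others that fell were mainly assembly factors of the small ribosomal subunit, *DIM1* at −0.43 and −0.46 among them, and the casein kinase gene *HRR25* rose in *sis2*Δ (0.22, edgeR adjusted p = 0.00433). The list medians were −0.12 and −0.14. For the interaction 0 of the 19 passed (1 at an unadjusted p under 0.05). Between strains (medians 0.08 and 0.07) 0 of the 19 passed edgeR's test in either medium (4 at an unadjusted p under 0.05 in 7.35 mM KCl and 1 in 0.5 mM KCl), and 1 passed in 7.35 mM KCl with batch as a replicate block.

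Short-lived noncoding transcripts are terminated by the Nrd1-Nab3-Sen1 complex and degraded by the nuclear exosome, its TRAMP cofactor and cytoplasmic decay enzymes. Of 18 such genes, 0 rose and 6 fell with low potassium in WT, where the TRAMP helicase gene *MTR4* was lowest (−0.38, edgeR adjusted p = 0.00017). In *sis2*Δ 0 rose and 8 fell, with the 5′ exonuclease gene *XRN1* lowest (−0.34, adjusted p = 0.000216 by edgeR). The shares of all tested features past the threshold in these comparisons were 47.3% and 45.9%. The list medians were −0.09 and −0.15. Between strains in 7.35 mM KCl *AIR2*, a TRAMP RNA-binding subunit, was the only one of the 18 to pass (0.23, edgeR adjusted p = 0.034), a call lost without any of 4 single libraries (0.19 to 0.26), and in 0.5 mM KCl 0 of 18 passed edgeR's test (3 at an unadjusted p under 0.05), at medians of −0.02 and −0.04. The interaction was passed by 0 of 18 in edgeR (1 at an unadjusted p under 0.05).

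**Figure D4:**
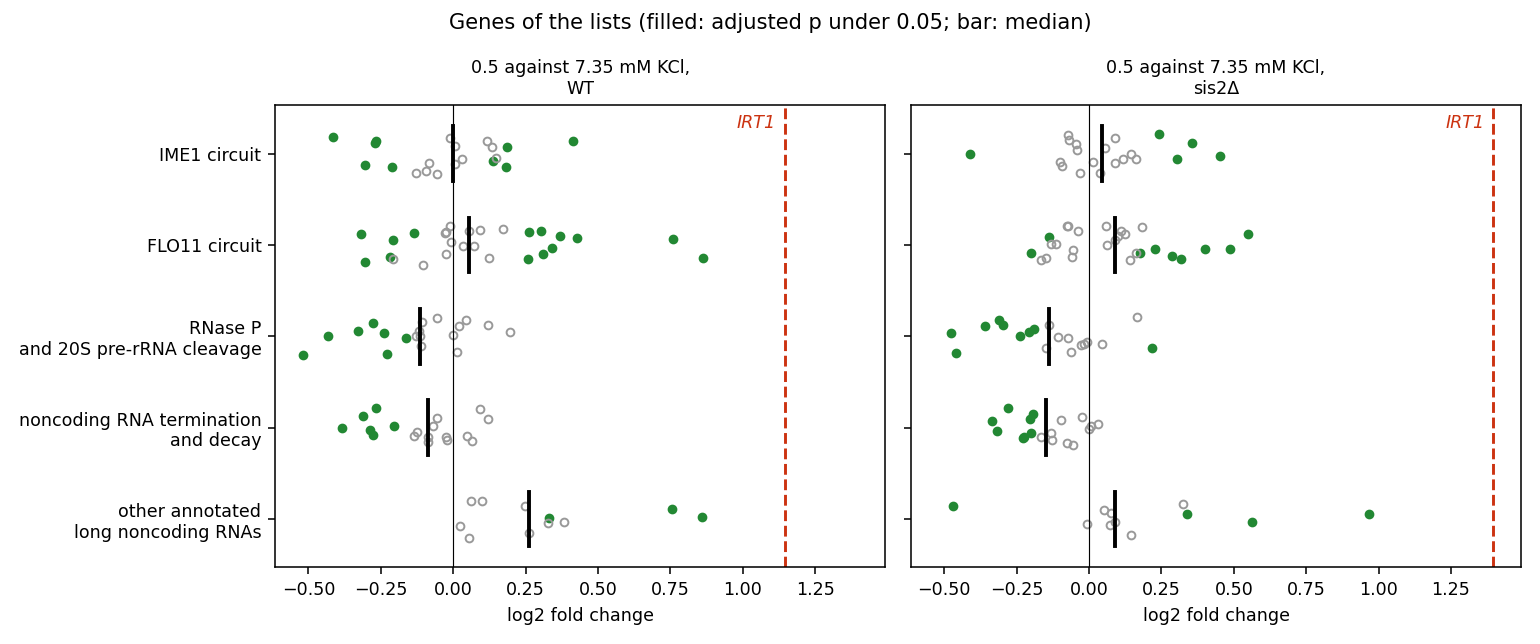
Log2 fold change with low potassium in WT (left) and *sis2*Δ (right) of the measured genes of the 5 lists, one point per gene with vertical jitter. Filled points have an edgeR adjusted p under 0.05, black bars are list medians and the red dashed line is *IRT1*. *IRT1*, at 1.14 in WT and 1.40 in *sis2*Δ, lies to the right of every listed gene in both strains. *IRT1* and the lists were chosen with earlier results of these data known.

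Of 15 other listed noncoding RNAs, 14 were in the table used here and 11 of those were abundant enough to test. With low potassium 3 rose and 0 fell in WT (median 0.26), and 3 rose and 1 fell in *sis2*Δ (median 0.09). *NME1*, the RNA of RNase MRP, was highest in both (0.86, edgeR adjusted p = 1.2e-05, and 0.97, adjusted p = 3.35e-06 by edgeR). *SRG1*, which represses *SER3* by transcription through its promoter, rose by 0.33 in WT (edgeR adjusted p = 0.00133) and by 0.56 in *sis2*Δ (adjusted p = 6.82e-06 by edgeR). *RPR1*, the RNA of RNase P, was lowest in *sis2*Δ (−0.47, edgeR adjusted p = 0.019), a call lost without replicate 2 of *sis2*Δ in 7.35 mM KCl (−0.36) or in 0.5 mM KCl (−0.27). *NME1*, *RPR1* and *SCR1* are not polyadenylated when mature, and the libraries were made from poly(A)-selected RNA.

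Between the strains, *SCR1*, the RNA of the signal recognition particle, was the highest of these RNAs, at 1.15 in 7.35 mM KCl (edgeR adjusted p = 1.26e-06) and 0.47 in 0.5 mM KCl (adjusted p = 0.0366 by edgeR, a call lost when any of 5 libraries was left out). *SRG1* was lowest in 7.35 mM KCl (−0.27, edgeR adjusted p = 0.0301, lost when any of 5 libraries was left out). In that medium 2 of the 11 rose and 1 fell, and in 0.5 mM KCl 1 rose and 0 fell (medians 0.04 and 0.02). *IRT1*, by its fold change with low potassium of 1.14 in WT and 1.40 in *sis2*Δ, lay above each of the 11 RNAs. Among all tested features, 185 had a higher fold change than *IRT1* in WT and 109 in *sis2*Δ. Since *IRT1* and the lists were chosen with earlier results of these data known, nothing is read from its place above the list.

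The features whose level followed each RNA most closely over the 12 libraries were taken by Pearson's r of log2 CPM among 6687 features outside the set. For *IRT1* they were *SPL2* (r = 0.988), *VTC1* (0.984) and *VTC3* (0.983). *SPL2* encodes an inhibitor of low-affinity phosphate uptake, and *VTC1* and *VTC3* encode subunits of the vacuolar polyphosphate polymerase. *SPL2* differed far more than *IRT1* with low potassium (log2 fold changes of 5.27 in WT and 5.26 in *sis2*Δ), *VTC1* differed by 1.58 and 2.18, and *VTC3* by 2.42 and 2.73. In 0.5 mM KCl the *sis2*Δ level of each exceeded the WT level, by 0.92 for *SPL2*, 0.65 for *VTC1* and 0.61 for *VTC3*, beside 0.43 for *IRT1*. Since the libraries form groups, these r values reflect differences between groups as well as between replicates.

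For *HRA1* the most alike were *DRS2* (r = 0.965), the uncharacterized *YLL032C* (0.954) and *MYO4* (0.952), a myosin that transports mRNA to the bud. For *ICR1* they were *CDC55* (0.920), a regulatory subunit of protein phosphatase 2A, *RSC3* (0.914), of the RSC chromatin remodeller, and *VAC7* (0.884), of vacuolar lipid signalling. For *PWR1* they were *YFL065C* (0.919), at a mean of 0.748 CPM, *GYP1* (0.898), a Rab GTPase activator, and *RLM1* (0.883), a transcription factor of the cell wall pathway. With Spearman's rho in place of r, 1 of the 3 named features was shared for *ICR1* and 0 for *IRT1*, *PWR1* and *HRA1*.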

How the data were processed

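Poly(A)-selected RNA from 12 cultures was sequenced from directional libraries, with 150-base reads. The submitters' processing notes name bcl2fastq, cutadapt 2.6, STAR 2.7.6a, featureCounts, Subread 1.6.2 and genome build R64. The deposited table holds the authors' expected counts (fractional counts per feature, 40.1% of them whole to within 0.005); how shared reads were divided and whether strand was used are not given in the sources used here. Counts were rounded to whole numbers and features were filtered with filterByExpr, which left 6691 of 7112. Of the 7112 features, 1039 were not placed on R64 and took no part in statements on position or length. The 4 members and all gene lists were chosen with earlier results of these data known.

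All 12 libraries were fitted together in edgeR 4.0.16 (R 4.3.3) with TMM normalization, 1 coefficient per group and quasi-likelihood F tests, with Benjamini-Hochberg adjustment across all genes tested; the common biological coefficient of variation was 5.70%. The authors' model likewise had no batch term. Replicate numbers are batch numbers in the labels, which pairs the samples: same-numbered deviations correlated with a median r of 0.0576 over 18 pairs, against −0.0343 over 36 pairs with different numbers. Levels are CPM on TMM-scaled library sizes; ratios of counts used a pseudocount of 0.5 and likeness a prior count of 2. The procedure was tested on simulated data. Alternatives were DESeq2 1.42.0, other normalization, filters and rounding, the replicate block, fits of 6 libraries alone, and leaving out each library. Named features were the 4 members; *IME1*, *FLO11* and *DRS2*; features overlapping or next to a member; 5 regulators with a known link to a member (*RME1*, *SET2*, *SET3*, *SFL1* and *RPD3*, a sixth not analysed here); the highest and lowest called gene of each list and comparison; the 3 features most like each member; and *SIS2*. *IME4*, *RME2*, the mating-type genes and *DIM1* fall outside that rule and were named after their values were seen. Sequences are from RefSeq R64. Nothing states that the cultures came from separate colonies, so p-values measure the spread between cultures.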

Additional observations from a re-analysis of the deposited data

Results flagged for a closer look

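The effect of low potassium differed between the strains in 3 of the listed genes by the interaction term of the edgeR fit. *PHD1* responded by 0.55 less on the log2 scale in *sis2*Δ than in WT (interaction −0.55, edgeR adjusted p = 0.0184); without WT in 7.35 mM KCl replicate 3 or *sis2*Δ in 0.5 mM KCl replicate 1 it did not pass. *FLO9* had an interaction of −0.40 (edgeR adjusted p = 0.0165) and passed in all 18 alternatives. *SCR1* had an interaction of −0.68 (edgeR adjusted p = 0.0271), and that call was lost when any of 5 single libraries was left out.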

How the results depend on the processing

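The fold changes of the 4 noncoding RNAs stayed within the replicate SD of the reported values in all 376 alternative values computed. Leaving out 1 of 3 libraries moves a group mean by only part of that group's SD, so for those settings this was close to fixed in advance. Within that limit *IRT1* ranged from 0.05 to 0.27 between strains in 7.35 mM KCl, and the *HRA1* interaction from −0.38 to −0.07. Pairing the libraries by batch (replicate block) gave *IRT1* log2 fold changes of 1.15 with low potassium in WT and 1.39 in *sis2*Δ. With the block the number of listed genes past the threshold moved from 0 to 1 for the *IME1* circuit in the interaction, for the *FLO11* circuit between strains in 0.5 mM KCl and for the RNase P list between strains in 7.35 mM KCl, and the same move from 0 to 1 followed in the last pair of these when only the 6 libraries compared were fitted. Leaving out 1 library gave 488 to 1083 features between strains in 7.35 mM KCl (over 1.5 times fewer without WT replicate 1 or 2 or *sis2*Δ replicate 2 or 3), 54 to 440 in 0.5 mM KCl (over 1.5 times fewer without WT replicate 1 or *sis2*Δ replicate 1 or 3, and more without *sis2*Δ replicate 2) and 111 to 340 for the interaction (over 1.5 times fewer without WT replicate 2 or *sis2*Δ replicate 1 in 0.5 mM KCl, and more without *sis2*Δ replicate 2 there). List counts between strains in 7.35 mM KCl then ranged from 3 to 7 for the *FLO11* circuit, 0 to 1 for the RNase P list, 0 to 4 for the decay list and 1 to 3 for other noncoding RNAs. Between strains in 0.5 mM KCl they ranged from 0 to 2 for the *IME1* circuit, 0 to 1 for the *FLO11* circuit, 0 to 3 for the decay list and 0 to 1 for other noncoding RNAs. With low potassium in *sis2*Δ the decay list ranged from 5 to 9. For the interaction they ranged from 0 to 1 for the *IME1* circuit, the decay list and other noncoding RNAs, and from 1 to 3 for the *FLO11* circuit. The direction turned for *FLO11* in the interaction (−0.12 to 0.20) and for *IME1* between strains in 0.5 mM KCl (−0.074 to 0.11), neither of which passed the test. Small values of the members turned too when 1 library was left out: *ICR1* between strains in 0.5 mM KCl (−0.10 to 0.02) and with low potassium in *sis2*Δ (−0.05 to 0.07), and *PWR1* between strains in 0.5 mM KCl (−0.09 to 0.04) and with low potassium in WT (−0.06 to 0.07). The causes were not tested. Counting error limits *PWR1* most, and overlap with features on the opposite strand limits *PWR1*, *ICR1* and *HRA1*.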
